A study of Mus musculus with 6 samples.

Results

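The 33 genes described here encode complement components, receptors and regulators, and were taken by symbol from a list of complement genes among the 56748 genes of the deposited count table. Primary osteocytes were isolated from the long bones of 7-week-old mice and cultured for 7 days before 6 RNA libraries were sequenced, with 3 libraries from WT mice (C57BL/6) and 3 labelled cKO. The cKO mice were Gsdmd fl/fl with a DMP1-Cre transgene, in which the promoter of dentin matrix protein 1 drives Cre, so that Gsdmd, the gene of the pore-forming protein gasdermin D, was to be lost from osteocytes. Every culture of both genotypes had received lipopolysaccharide (LPS) at 10 ng/mL for 3 h and then 20 µg/mL of aluminum hydroxide, which activates the inflammasome, for another 3 h, and no unstimulated libraries were analysed here. Each value therefore compares the genotypes under stimulation. The labels do not say whether the 3 libraries of a genotype came from separate mice, and the p-values then measure only the spread between these libraries.

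Complement is a set of plasma and cell-surface proteins that tag particles for uptake, call in leukocytes and form pores in membranes. The classical pathway starts when C1q binds a surface and activates the proteases C1r and C1s, which cleave C4 and C2. The lectin pathway reaches the same step through the MASP proteases, and the alternative pathway amplifies C3 cleavage through factors B and D and is stabilized by properdin. All routes meet at C3 and then at C5, from which the membrane attack complex is built, while CD55, CD46, CD59 and C1 inhibitor hold the cascade in check. The liver makes most circulating complement, but macrophages are the main source of C1q, and bone stromal cells also transcribe several components.

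The libraries held 39566835 to 49734046 counts on genes. Levels are given as CPM, counts scaled to a library of 1000000 with edgeR's TMM factors. Calling a gene required a Benjamini-Hochberg adjusted p-value below 0.05 over 17146 tested genes in edgeR's quasi-likelihood test, and a log2 fold change of 1 or more in either direction. Gsdmd, the targeted gene, was at 13.5, 14.1 and 14.1 CPM in the WT libraries and at 21.0, 23.6 and 23.0 CPM in the libraries labelled cKO. It was thus higher in the libraries in which it should be deleted (log2 fold change 0.69, standard error 0.0827, adjusted p = 2.27e-06 by edgeR's quasi-likelihood test), although the gene count pools all exons and does not separate the floxed ones, so that each direction below rests on the label. Xist, the RNA that coats the silenced X chromosome in female cells, had 4, 0 and 2 counts in WT and 48762, 44817 and 51216 in the libraries labelled cKO, whereas the Y-linked gene Ddx3y had 4785, 5455 and 4033 counts in WT and 0 in each library labelled cKO. The sex of the source animals and the genotype therefore cannot be told apart in these libraries, although the methods give the mice as matched for sex. Of the osteocyte markers, Sost was at 0 in every library, Dmp1 was counted 0, 0 and 4 times in WT and 2, 6 and 4 times in the libraries labelled cKO, and Mepe had 2 counts in 1 library labelled cKO and 0 elsewhere. Phex had 22, 4 and 4 counts in WT and 16, 2 and 6 in the libraries labelled cKO, with overlap, and Fgf23 had 14, 34 and 8 counts in WT and 6, 0 and 0 in the libraries labelled cKO, which were all below WT, and both had too few counts to enter the test. Pdpn, a marker that other mesenchymal cells share, was at 226, 240.4 and 235 CPM in WT and at 195, 195 and 189 CPM in the libraries labelled cKO. All 12 macrophage markers were in the table, 11 were tested and 11 were called higher in the libraries labelled cKO. Their summed level was 1152 to 1301 CPM in WT, against 5926 to 6205 CPM in those labelled cKO, and their log2 fold changes ran from 1.73 to 4.42 with a median of 3.01. Aif1, the highest of these at 4.42, was at 0.0258 to 0.133 CPM in WT. It passed the filter on low counts only through the libraries labelled cKO, so its call could go in 1 direction alone. Markers of B and T cells, red cells and hepatocytes were at or near 0, with at most 0.0951, 0.0475 and 0.22 CPM in all.

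Of the 33 complement genes, 9 were called as higher and 3 as lower with the cKO label, 14 were tested and not called, and 7 were left untested for lack of counts. The called-higher genes were C1qa, C1qb, C1qc, Cfb, Cfp, C3ar1, C5ar1, C5ar2 and Clu, and the called-lower genes were C2, Hc and Cd55. Among all tested genes, 6.56% were called higher and 4.64% lower. Of the 26 tested complement genes, 15 had all 3 libraries labelled cKO above the 3 WT libraries, 4 had them all below and 7 overlapped, where 25.3% of all tested genes lay above and 23.9% below. All 12 called genes were among those without overlap. Without the limit on the fold change, 16 of the 33 passed as higher and 4 as lower, where 20.1% and 19.2% of all tested genes did. The median log2 fold change of the 26 tested complement genes was 0.39 next to 0.0077 for all tested genes. Hc reached the test only through its WT libraries and C5ar2 only through those labelled cKO, since 0 libraries labelled cKO passed the filter on low counts for Hc and 2 WT libraries did for C5ar2. The counts and the median over the tested genes rest in part on this filter and are given as a description.

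**Figure D1:**
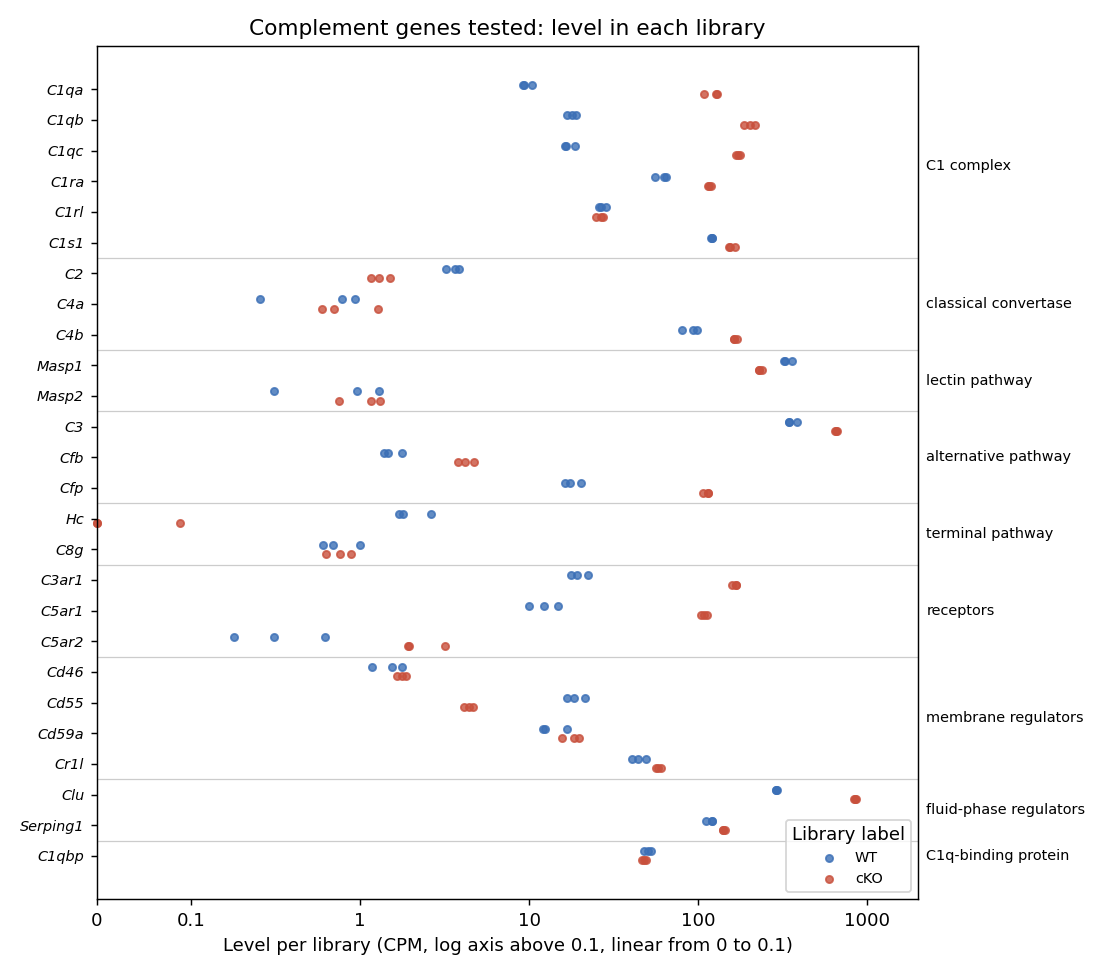
Level of each of the 26 tested complement genes in CPM, on a log axis above 0.1 CPM and a linear one below, with 1 point for each of the 3 WT (blue) and 3 cKO-labelled (red) libraries and genes grouped by role. The C1q chains, Cfp and the receptors C3ar1, C5ar1 and C5ar2 are set far to the right in the libraries labelled cKO, Cd55, C2 and Hc are set to the left, and genes such as C1rl, C8g and C1qbp overlap.

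C1q, the recognition subunit of the classical pathway, is built from 3 chains whose genes lie side by side within 18675 bases of chromosome 4, from 136607440 to 136626114 in GRCm39. All 3 rose in the libraries labelled cKO, by 10.0-fold to 12.6-fold. C1qa was at 9.38, 9.19 and 10.4 CPM in WT and at 109, 129 and 127 CPM in the libraries labelled cKO, a 12.6-fold difference (log2 fold change 3.66, standard error 0.0752, adjusted p = 2.23e-16 by edgeR's quasi-likelihood test). C1qb was at 17.9, 16.8 and 19.0 CPM and at 187, 216 and 202 CPM, an 11.3-fold difference (log2 fold change 3.50, standard error 0.0644, adjusted p = 6.28e-17 by edgeR's quasi-likelihood test). C1qc was at 16.3, 16.5 and 18.8 CPM and at 172, 177 and 166 CPM, a 10.0-fold difference (log2 fold change 3.32, standard error 0.0601, adjusted p = 5.71e-17 by edgeR's quasi-likelihood test). For each chain the lowest library labelled cKO lay far above the highest WT library, and the 3 libraries within a genotype were close to one another. The macrophage markers, with the values above, rose in the same libraries, and in bulk RNA more cells of a type and more RNA per cell cannot be told apart. The part of the macrophage markers in the rise of C1q was not tested.

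Because C1qb and C1qc moved together and are neighbours, their upstream sequences are shown, with that of C3ar1, a receptor gene that rose in the same libraries. The sequences are from RefSeq (GRCm38.p6 table) and were placed in GRCm39 by exact match. Each is read 5′ to 3′ on the minus strand, the strand of the gene, and ends where the gene's body begins in the deposited table or at the RefSeq start, whichever comes first. C1qb is at chr4:136613512-136613761, C1qc at chr4:136620377-136620475 and C3ar1 at chr6:122833121-122833366. Capitals mark the letters GAGGAA or their reverse complement, the core bound by the myeloid factor PU.1.
C1qb: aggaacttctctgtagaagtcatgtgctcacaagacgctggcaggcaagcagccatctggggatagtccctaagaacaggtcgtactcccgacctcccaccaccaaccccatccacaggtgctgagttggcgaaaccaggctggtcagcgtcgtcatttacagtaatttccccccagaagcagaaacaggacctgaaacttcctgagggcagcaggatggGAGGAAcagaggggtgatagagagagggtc
C1qc: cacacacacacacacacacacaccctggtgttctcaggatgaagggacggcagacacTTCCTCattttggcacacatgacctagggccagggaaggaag
C3ar1: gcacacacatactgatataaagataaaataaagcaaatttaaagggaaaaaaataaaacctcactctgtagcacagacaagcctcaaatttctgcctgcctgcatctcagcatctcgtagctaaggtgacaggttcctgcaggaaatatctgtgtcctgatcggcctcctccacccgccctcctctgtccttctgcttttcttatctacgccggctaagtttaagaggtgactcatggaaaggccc
The core lies 30 to 25 bases before the RefSeq start of C1qb, on the gene's strand, and 193 to 188 bases before that of C1qc, on the other strand, and the C3ar1 stretch has none. Upstream sequences of 250 bases were at hand for 24 of the 33 genes, and 5 held the core on either strand (C1qb, C1qc, C5ar2, Cd59a and Vsig4), as did 23.3% of all 32851 listed sequences. On both strands, the NF-κB motif was in 1 of the 24 (C1qc) and in 7.25% of all, the interferon-stimulated response element in 2 (Cd59a and Colec11) and in 2.98%, and TTGCNNAA, a C/EBP motif, in 4 (C1rl, C1s1, C3 and C5ar2) and in 9.56%. The search covered the whole 250 bases before the RefSeq start. The NF-κB match of C1qc lies outside the printed stretch, within the gene's body in the deposited table. These matches describe letters and not binding. C1qa, C2, C4a, C4b, Cfb, Cfi, Clu, Masp1 and Serping1 had no entry.

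The proteases of the C1 complex changed less than C1q. C1ra, which encodes C1r, was at 55.2, 62.9 and 64.6 CPM in WT and at 114, 119 and 116 CPM in the libraries labelled cKO, a 1.91-fold rise that stayed just under the fold limit (log2 fold change 0.93, standard error 0.0571, adjusted p = 3.54e-10 by edgeR's quasi-likelihood test). C1s1, which encodes C1s, was at 121, 119 and 120.3 CPM and at 153, 155 and 165 CPM (log2 fold change 0.39, standard error 0.0446, adjusted p = 1.32e-06 by edgeR's quasi-likelihood test). The groups did not overlap for either gene. Within each library the per-length level of C1s1 was 1.77 to 2.08 times that of C1ra in WT, against 1.23 to 1.36 times in those labelled cKO (exact permutation test, two-sided p = 0.1, the smallest that 3 against 3 libraries can give; 0.15 after Benjamini-Hochberg adjustment over 9 ratios). C1rl, a C1r-like protease, was at 27.2 ± 1.36 CPM in WT and 26.3 ± 1.35 CPM in the libraries labelled cKO (SD, n = 3 each), with overlapping libraries (edgeR, adjusted p = 0.646). C1ra shares 26.3% of its 150-base words with its paralog C1rb, so reads between the 2 genes could have been split or dropped and the C1ra level is uncertain to that extent. C1qbp, a mainly mitochondrial protein that binds the globular heads of C1q, was at 50.2 ± 2.46 and 47.7 ± 1.34 CPM (SD, n = 3 each) with overlapping libraries (edgeR, adjusted p = 0.344).

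C4 and C2 form the classical C3 convertase, and their genes went in opposite directions. C4b was at 80.3, 93.0 and 98.4 CPM in WT and at 164, 169.9 and 162 CPM in the libraries labelled cKO, a 1.82-fold rise below the fold limit (log2 fold change 0.87, standard error 0.0605, adjusted p = 2.16e-09 by edgeR's quasi-likelihood test). C2 fell from 3.67, 3.22 and 3.86 CPM in WT to 1.16, 1.51 and 1.3 CPM in the libraries labelled cKO, a level 2.7-fold lower (log2 fold change -1.43, standard error 0.225, adjusted p = 5.22e-05 by edgeR's quasi-likelihood test). All 3 libraries labelled cKO were below all WT libraries for C2 and above them for C4b. C4a, a sex-limited relative of C4b that the table lists as a long noncoding RNA, had 10 to 51 counts per library, with overlapping groups (log2 fold change 0.36, standard error 0.478, adjusted p = 0.595 by edgeR's quasi-likelihood test). C4a shares 8.28% of its 150-base words with C4b, so part of its few counts is uncertain. The ratio of C4a to C4b per length was between 0.0024 and 0.0107 over all 6 libraries, with an exact permutation p of 0.7.

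C2 and Cfb are paralogs that encode the catalytic subunits of the classical and the alternative convertase, and lie 85 bases apart on the minus strand of chromosome 17. Cfb moved the other way from its neighbour, from 1.47, 1.77 and 1.39 CPM in WT to 3.78, 4.7 and 4.16 CPM in the libraries labelled cKO (log2 fold change 1.44, standard error 0.21, adjusted p = 2.37e-05 by edgeR's quasi-likelihood test). Within each library the per-length level of C2 was 1.33 to 2.03 times that of Cfb in WT, against 0.225 to 0.234 times in those labelled cKO. This difference of -2.89 on the log2 scale was the largest of the 9 ratios computed (exact permutation test, two-sided p = 0.1, the smallest possible; adjusted 0.15). Both genes overlap Gm20547, a gene listed at 0 in every library, and C2 also overlaps 2 genes of the opposite strand, so reads on shared exons could have been dropped and both levels are uncertain.

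Per kilobase of gene length, C3, the protein on which all pathways meet, had the second highest level of the 33 genes in WT, at 69.3 CPM per kilobase on average, behind Clu at 84.2. C3 was at 342, 345 and 382 CPM in WT and at 649, 652 and 666 CPM in the libraries labelled cKO, a 1.84-fold rise with no overlap that stayed under the fold limit (log2 fold change 0.88, standard error 0.0432, adjusted p = 1.78e-11 by edgeR's quasi-likelihood test). Properdin, the stabilizer of the alternative convertase, is encoded by Cfp on the X chromosome and is known to be made by myeloid cells. Cfp was at 16.4, 17.5 and 20.3 CPM in WT and at 107, 114 and 114 CPM in the libraries labelled cKO, 6.19-fold higher (log2 fold change 2.63, standard error 0.0682, adjusted p = 3.44e-15 by edgeR's quasi-likelihood test), without overlap. Cfd, the protease factor D (adipsin), which adipocytes are known to secrete, was at 0 counts in every library, which, with 3 counts as the limit, allows up to 0.0773 CPM in the library with the highest limit. The adipocyte markers Plin1 and Cidec were also at 0 in every library, whereas the others of that list were counted. Lpl went from 17.3 to 33.2 CPM on average and Fabp4 from 4.49 to 7.72 CPM. Adipoq had 0, 0 and 1 counts in WT and 8, 2 and 6 in the libraries labelled cKO. The counted level of Cfb stayed far below that of C3. Per length it was 0.00663 to 0.00935 of C3 in WT, against 0.0106 to 0.0131 in those labelled cKO (exact permutation test, two-sided p = 0.1, the smallest possible, adjusted 0.15). Reads that Cfb shares with Gm20547 could have been dropped, as given above, so the true ratio to C3 could be higher and is uncertain.

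**Figure D2:**
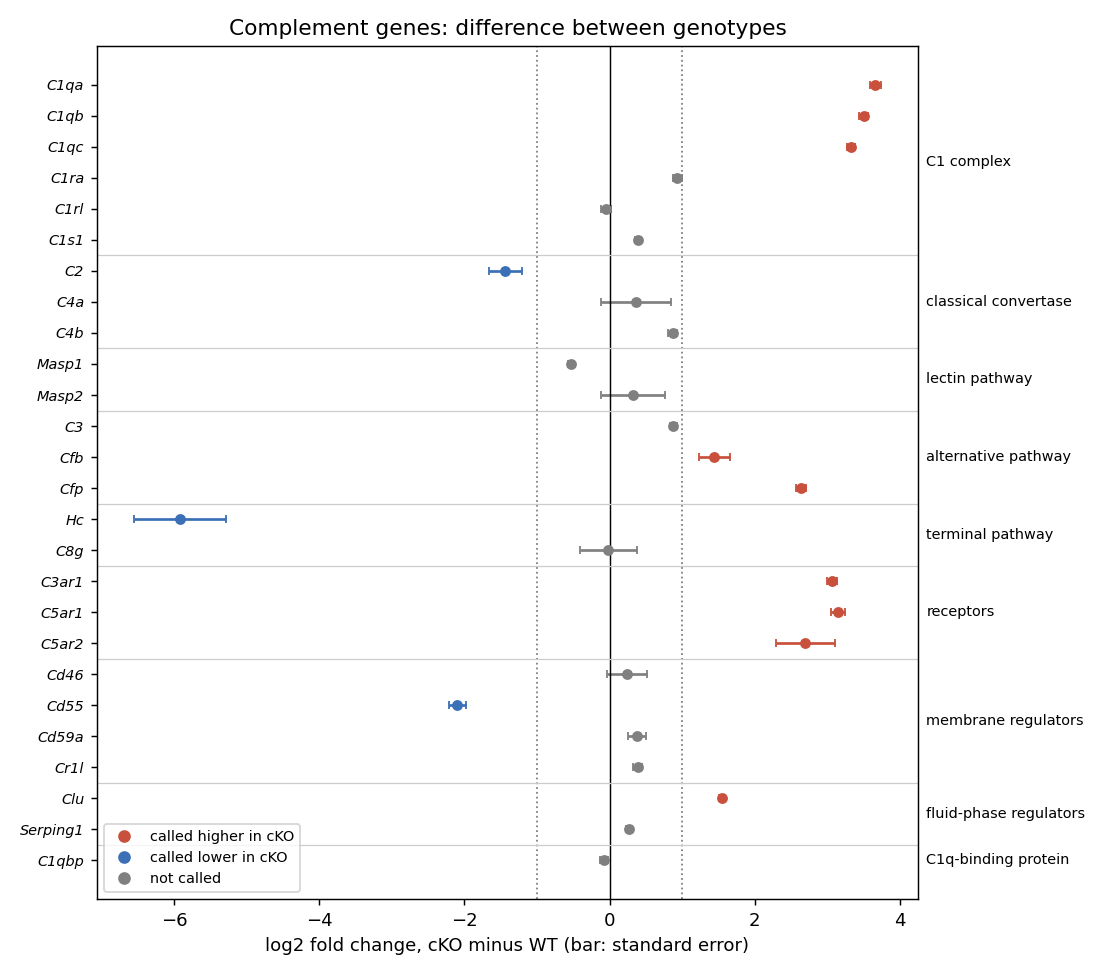
Log2 fold change (cKO minus WT) of the 26 tested complement genes with its standard error, grouped by role, in red where called higher, blue where called lower and grey where not called, with dotted lines at the limit of 1. C1qa reaches 3.66, Hc lies at -5.91 with the widest bar, and C2 and Cfb, which are neighbours on the chromosome, lie on opposite sides of 0.

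The lectin pathway was represented by 1 abundant gene. Masp1, which encodes the MASP-1 and MASP-3 proteases, was at 325, 321 and 359 CPM in WT and at 228, 238 and 229 CPM in the libraries labelled cKO, a decrease without overlap that stayed under the fold limit (log2 fold change -0.53, standard error 0.0458, adjusted p = 3.53e-08 by edgeR's quasi-likelihood test). Masp2, the protease that cleaves C4 and C2 in this pathway, was at 0.855 ± 0.499 CPM in WT and 1.08 ± 0.287 CPM in the libraries labelled cKO (SD, n = 3 each), and the groups overlapped (edgeR, adjusted p = 0.615). Colec11, a collectin that carries the MASP proteases, had 0 to 10 counts per library and was not tested.

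The terminal components were at low levels throughout. Hc, which encodes C5 and lies on chromosome 2 from 34873343 to 34951450 of GRCm39, had 81, 131 and 66 counts in WT and 0, 0 and 4 counts in the libraries labelled cKO. In CPM this was 1.8, 2.64 and 1.7 in WT, with no WT library near the 0, 0 and 0.0881 of the libraries labelled cKO. The summed counts gave a ratio of WT to cKO of 66.3, with an exact 95% interval of 25.6 to 245, which, as reads carried no molecular identifiers, covers counting error alone. It also treats every count as independent, which was not tested. Even numbers made up 63.4% to 65.7% of small counts, and the interval is too narrow if the mates of a pair were counted apart. The fitted log2 fold change was -5.91 (standard error 0.636, adjusted p = 6.43e-07 by edgeR's quasi-likelihood test), and leaving out single libraries moved it from -9.47 to -5.37. Without replicate 3 of cKO, Hc was at 0 in the others labelled cKO and at least 27.9-fold lower than in WT, against a floor of 3 counts per library. Hc overlaps Gm13449 on the opposite strand, so its few counts are uncertain. C8g, the lipocalin-like chain of C8, was at 0.767 ± 0.207 CPM in WT and 0.757 ± 0.126 CPM in the libraries labelled cKO (SD, n = 3 each), with overlapping libraries (edgeR, adjusted p = 0.981). C6 had 0 to 12 counts and C7 had 0 to 4 counts per library, and neither was tested.

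The receptors for the anaphylatoxins, the small fragments C3a and C5a released when C3 and C5 are cleaved, rose together. C3ar1 was at 17.7, 19.2 and 22.4 CPM in WT and at 159, 168 and 169 CPM in the libraries labelled cKO, 8.38-fold higher (log2 fold change 3.07, standard error 0.0698, adjusted p = 6.28e-16 by edgeR's quasi-likelihood test). C5ar1 was at 9.95, 12.3 and 14.8 CPM and at 104, 109 and 113 CPM, 8.82-fold higher (log2 fold change 3.14, standard error 0.094, adjusted p = 1.98e-14 by edgeR's quasi-likelihood test). C5ar2, a second C5a receptor that does not couple to G proteins and lies next to C5ar1 on chromosome 7, was at 0.311, 0.181 and 0.618 CPM in WT, from 9 to 24 counts, and at 1.92, 3.19 and 1.96 CPM in the libraries labelled cKO, from 81 to 127 counts (log2 fold change 2.70, standard error 0.408, adjusted p = 3.53e-05 by edgeR's quasi-likelihood test). No library labelled cKO overlapped with WT for any of the receptors, and the per-length ratio of C5ar2 to C5ar1 overlapped between the genotypes (exact permutation test, two-sided p = 0.6; adjusted 0.675). Their ligand precursor C3 rose and the C5 gene Hc fell in the same libraries, as given above. The log2 fold changes of the receptors lay between 2.70 and 3.14, next to the macrophage markers' median of 3.01, and the part of those markers in the rise was not tested. Vsig4, a receptor for C3 fragments on tissue macrophages, was at 0 in every WT library and at 0, 4 and 12 counts in the libraries labelled cKO, too few to be tested. The macrophage marker Cd163 likewise had 2, 0 and 0 counts in WT and 4, 2 and 15 counts in the libraries labelled cKO.

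Among the membrane regulators, which protect host cells from complement, Cd55 was the 1 gene of 4 that was called. Cd55, the decay-accelerating factor, lies on chromosome 1 from 130366764 to 130390481 of GRCm39 and fell from 18.4, 16.8 and 21.3 CPM in WT to 4.63, 4.43 and 4.12 CPM in the libraries labelled cKO, 4.29-fold lower (log2 fold change -2.10, standard error 0.118, adjusted p = 1.13e-10 by edgeR's quasi-likelihood test). The libraries of each genotype were close to one another and far from those of the other. Cd55 shares 2.14% of its 150-base words with Cd55b, and its level is uncertain to that extent. Cr1l, the rodent regulator Crry, was at 44.6 ± 4.33 CPM in WT and 58.3 ± 1.94 CPM in the libraries labelled cKO (SD, n = 3 each), without overlap (edgeR, log2 fold change 0.39, adjusted p = 0.000111). Cd59a, which blocks the membrane attack complex, was at 13.8 ± 2.64 CPM and 17.9 ± 2.06 CPM (SD, n = 3 each), with overlapping libraries (edgeR, log2 fold change 0.38, adjusted p = 0.0194). Cd46, which mouse somatic tissues are known to express little, was at 1.5 ± 0.303 CPM and 1.77 ± 0.106 CPM (SD, n = 3 each; edgeR, adjusted p = 0.529). The ratio of Cd55 to Cd46 per length was 17.0 to 24.5 in WT, against 3.45 to 4.18 in those labelled cKO (exact permutation test, two-sided p = 0.1, the smallest possible; adjusted 0.15). Cd46 overlaps 4 genes of the opposite strand, Masp1 overlaps 3 and Cd55, C1rl, C1s1, C8g and Masp2 overlap 1 each, and since the strand setting of the counting is not stated, their levels are uncertain.

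Clu and Serping1 encode soluble regulators. Clu, clusterin, which binds the forming membrane attack complex and also acts as a chaperone, had the highest level per kilobase of the 33 genes in both genotypes, at 84.2 CPM per kilobase in WT and 245 in the libraries labelled cKO. Clu was at 287, 289 and 292 CPM in WT and at 842, 853 and 832 CPM in the libraries labelled cKO, 2.91-fold higher (log2 fold change 1.54, standard error 0.0351, adjusted p = 6.28e-16 by edgeR's quasi-likelihood test), with replicates that differed by far less than the genotypes. Serping1, the C1 inhibitor that inactivates C1r, C1s and the MASP proteases, was at 112, 121 and 120.0 CPM in WT and at 144, 141 and 139 CPM in the libraries labelled cKO, a small rise without overlap (log2 fold change 0.27, standard error 0.0453, adjusted p = 0.000122 by edgeR's quasi-likelihood test). Per length, Serping1 was 2.38 to 2.6 times as abundant as its target C1ra in WT, against 1.51 to 1.62 times in those labelled cKO (exact permutation test, two-sided p = 0.1, the smallest possible; adjusted 0.15). Cfi, the protease that inactivates C3b and C4b, and Vtn, vitronectin, had 0 to 20 and 0 to 2 counts per library and were not tested.

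Per kilobase, which allows levels of different genes to be added, the 33 genes summed to 399 to 431 CPM per kilobase in WT, against 1119 to 1187 in those labelled cKO. The C1 complex took 24.8% ± 0.178 of this sum in WT and 42.3% ± 1.05 in the libraries labelled cKO (SD, n = 3 each), and the receptors took 2.29% ± 0.283 and 7.03% ± 0.146. C1qb went from 16.4 to 185 CPM per kilobase and, in the libraries labelled cKO, stood behind Clu alone, whereas Clu held 20.4% in WT and 21.2% in the libraries labelled cKO. The lectin pathway, almost all of it Masp1, went from 8.32% to 2.07%, and the membrane regulators from 3.87% to 1.44%. These shares add to 100, so a share can fall while the level does not. Among the C1q chains, C1qa was at 0.549 to 0.573 of C1qb per length in WT, against 0.611 to 0.659 in those labelled cKO (exact permutation test, two-sided p = 0.1, the smallest possible; adjusted 0.15). C1qc was at 0.513 to 0.557 of C1qb in WT, against 0.461 to 0.518 in those labelled cKO, where the groups overlapped (exact permutation test, two-sided p = 0.2; adjusted 0.257).

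**Figure D3:**
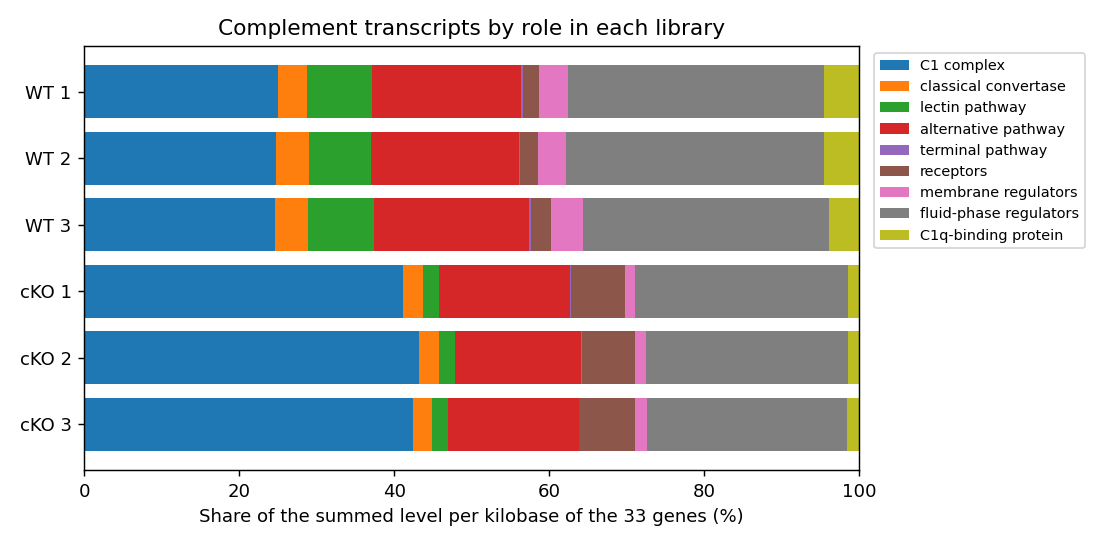
Share in percent of the summed level per kilobase of the 33 complement genes taken by each role, with 1 bar per library. The C1 complex takes 24.8% on average in WT and 42.3% in the libraries labelled cKO, the lectin pathway and the membrane regulators take smaller shares in the libraries labelled cKO, and the 3 bars of a genotype look alike.

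Outside the 33 genes, 35 further genes of the complement system and its receptors were examined, of which 15 had enough counts to be tested. Of these, 5 were called as higher with the cKO label and 0 as lower by edgeR, where 6.56% and 4.64% of all tested genes were called. At an unadjusted p below 0.05, 2 were lower by edgeR and 2 by DESeq2, which also called 0. The integrin chains of the complement receptors CR3 and CR4 rose: Itgam from 10.1 ± 0.154 to 70.6 ± 4.97 CPM, Itgax from 0.774 ± 0.307 to 5.57 ± 0.929 CPM and their shared chain Itgb2 from 53.3 ± 4.47 to 286 ± 11.8 CPM (SD, n = 3 each), with edgeR log2 fold changes of 2.81, 2.86 and 2.42 and adjusted p-values of 1.84e-15, 9.37e-08 and 1.07e-15. Cd93, once described as a C1q receptor, rose from 34.6 ± 1.34 to 190.3 ± 10.1 CPM (SD, n = 3 each; edgeR, adjusted p = 3.89e-16). C1rb had 11 to 23 counts per library in WT, against 26 to 77 with the cKO label (edgeR, 2.92-fold higher, adjusted p = 0.024), and this call was lost without replicate 1 or 3 of WT, without replicate 2 of cKO and under limma-voom. The genes that follow were named after their values were seen. Under the fold limit, Colec12, a scavenger receptor of the collectin family, fell from 352 ± 11.9 to 272 ± 3.8 CPM (SD, n = 3 each; edgeR, log2 fold change -0.37, adjusted p = 4.88e-07). Ptx3, a pentraxin that binds C1q, rose from 570.0 ± 33.9 to 841 ± 30.7 CPM (SD, n = 3 each; edgeR, log2 fold change 0.56, adjusted p = 9.22e-09). Fcna, Csmd1 and Calr also passed as higher without the fold limit, with edgeR log2 fold changes of 0.96, 0.97 and 0.14. The liver-made components C8a, C8b, Mbl1, Mbl2, Cpn1, Cpn2, Crp and Apcs were at 0 counts in every library, as was Fcnb.

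The tested complement genes ran from -5.91 to 3.66 in log2 fold change, with Hc at the lower end and Cd55 next at -2.10. The 7 tested osteoblast and stromal markers ran from -0.67 to 0.68, with a median of -0.09, and 2 passed as higher and 3 as lower without the fold limit, which each stayed under. That list summed to 9636 to 10688 CPM in WT, against 7636 to 8204 CPM in those labelled cKO. Col1a1, the most abundant of them, fell from 5802 to 3650 CPM on average. Neutrophil markers summed to at most 14.8 CPM in any library, with 2 of the 3 tested called higher, and S100a9 was at 0 in every library. Csf3r, 1 of those called, was at 0.111 to 0.258 CPM in WT and passed the filter on low counts only through the libraries labelled cKO. The summed endothelial markers were at 6.41 to 6.84 CPM in WT, against 6.32 to 6.71 CPM in those labelled cKO, with 4 of the 5 called lower and Kdr called higher. Of those called lower, Emcn, Tek and Cdh5 passed the filter on low counts only through the WT libraries. The osteoclast list had 1 of 4 tested genes called higher and 1 lower. It summed to 119 to 132 CPM in WT, against 82.2 to 94.3 CPM in those labelled cKO. The chondrocyte list had 2 of 4 tested genes called, Acan and Col9a1, both as higher. In WT, Acan was at 0.0403 to 0.178 CPM and Col9a1 at 0. Both passed the filter on low counts only through the libraries labelled cKO, so these calls could go in 1 direction alone. Its summed level was nonetheless lower with the cKO label, at 842 to 936 CPM against 1408 to 1572 CPM in WT. Col2a1, most of that sum, fell from 1428 ± 77.7 to 798 ± 47.5 CPM (SD, n = 3 each), without overlap and under the fold limit. The 2 tested adipocyte markers passed as higher without the fold limit but stayed under it.

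**Figure D4:**
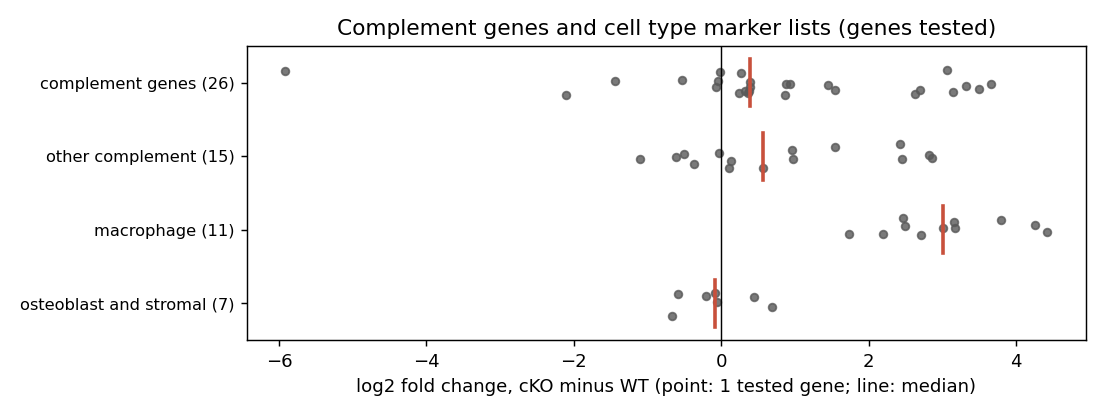
Log2 fold change (cKO minus WT) of each tested gene of the complement genes, the other complement genes, the macrophage markers and the osteoblast and stromal markers, with a red line at the median of each list. All 11 macrophage markers lie above 1, the osteoblast and stromal markers lie from -0.67 to 0.68, on both sides of 0, and the complement genes reach from -5.91 to 3.66.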

How the data were processed

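Reads (paired-end, 150 bp) were trimmed by the authors and mapped to GRCm39 with HISAT2 2.0.5. The authors counted them on genes with featureCounts (1.55.0-p3 in the submitters' processing notes, another release in the methods, which also name RSEM), and deposited raw counts per gene without normalization, with gene lengths in bases. The library kit was directional, whereas the strand setting used in counting is not given in the sources used here. Even numbers made up 63.4% to 65.7% of counts between 1 and 10. From the counts, filterByExpr, TMM scaling, glmQLFit and glmQLFTest of edgeR 4.0.16 (R 4.3.3) were run with genotype as the only term, with Benjamini-Hochberg adjustment over 17146 genes. CPM used TMM-scaled library sizes. The standard error of a log2 fold change was its absolute value divided by the square root of the test's F statistic. Ratios within libraries were compared with exact permutation tests, two-sided. The procedure was tested on simulated data. Alternatives were DESeq2 1.42.0, limma-voom 3.58.1, other scalings, filters and limits, halved counts, a replicate block and each library left out. The complement genes and all lists were chosen with earlier results of these data known. Named with all libraries were the genes called, C3, and genes of at least 100 CPM in either group. Replicates of 1 genotype differed by more than sampling noise (chi-square per gene 4.82 to 13.95), so all 6 libraries were kept. No protein sequences were used here. Motifs were searched on both strands of the upstream sequences. Some genes of the other complement list are not reported here by name. Other data of the study were not analysed here.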

Additional observations from a re-analysis of the deposited data

How the results depend on the processing

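The same 9 complement genes were called higher and the same 3 lower under DESeq2, limma-voom, both other scalings and halved counts, and with each library left out (9 and 3 each time). Without the fold limit 16 complement genes were higher, as were 9 of the other complement genes, with 2 lower, and 3445 and 3285 of all tested genes. Requiring 10 counts in each library dropped Hc and C5ar2 from testing, which left 8 and 2 complement genes, and 522 of all genes were lower (796 otherwise). With each library left out, 4 to 6 other complement genes were called higher and 0 to 1 lower (Susd4, without replicate 3 of WT), and 1027 to 1153 and 773 to 827 of all genes. Small differences turned sign: C8g gave 0.016 under limma-voom, 0.0055 with library size only and -0.17 to 0.21 with each library left out, C4a -0.034 to 0.68 (lowest without replicate 2 of cKO), Masp2 -0.066 to 0.71 (lowest without replicate 3 of WT) and the log2 difference in the ratio of C4a to C4b -1.01 to 0.065 (highest without replicate 1 of WT), and the cause was not tested. No shared deviation of same-numbered libraries was detected (r = -0.0103 to 0.0023), which cannot exclude that they were prepared together. With replicate number as a block, 9 complement genes were higher and 3 lower, and 1087 and 772 of all genes. With every gene of at least 1 count tested, Vsig4 was also called higher. Leaving out the division by gene length changed 0 of the 9 log2 differences in ratio, by construction. Of the other 6 genes left out of the main test, Cfd had 0 counts in every library and was not tested under any setting. C6, C7, Cfi, Colec11 and Vtn, with at most 20 counts in any library, were not called when every gene of at least 1 count was tested. Their counts are too low to say whether they differed.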
